A study of Homo sapiens with 6 samples.

Results

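Described here are 10 genes whose proteins link actin filaments to each other or to the cell membrane, out of 10487 genes measured in MDAMB468 cells. They are FSCN1, which encodes fascin, the alpha-actinins ACTN1 and ACTN4, the plastin PLS3, the ERM genes EZR, MSN and RDX, the tropomyosins TPM1 and TPM4, and the filamin FLNA. All 10 were found by symbol among the measured genes. They were chosen by their values in the comparison between IGFBP2 overexpression and control cells, in which the rise of FSCN1 was already known, so their differences there are given as a description with no p-value.

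MDAMB468 (MDA-MB-468) is a human cell line of triple negative breast cancer. The 3 control libraries came from cells that the labels give as wild type and untreated. The 3 IGFBP2 overexpression libraries came from untreated MDAMB468 cells that stably carry dCas9-VHP (also spelled VPH), a Cas9 that binds DNA without cutting it and recruits the transcription machinery, from a vector named for the EFS promoter, together with a guide RNA against IGFBP2, which encodes a secreted binding protein of insulin-like growth factors. The overexpression cells had been transduced with lentivirus, kept under antibiotic selection and sorted for a fluorescent marker, and the methods do not describe picking a single clone. Whether the control cells carry the activator without a guide is not stated, so an effect of the activator or of selection cannot be told apart from that of IGFBP2. Sequencing read the 3′ ends of transcripts, and expression is given in CPM, reads scaled to a common library size by the authors' normalization. Reads start near the end of a transcript whatever its length, so CPM levels were compared between genes without dividing by length.

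Actin filaments are polar polymers that a cell arranges into bundles, meshes and contractile cables. Fascin packs parallel filaments into the tight, straight bundles of filopodia and invasive protrusions, and its level is low in most normal epithelia. Alpha-actinins hold filaments apart at a spacing that myosin can enter, plastins make compact bundles, and filamins join filaments at wide angles into gels. Ezrin, moesin and radixin (the ERM proteins) tie filaments to membrane proteins, and tropomyosins lie along filaments and decide which other proteins can bind them.

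IGFBP2 (ENSG00000115457, chr2:216632828-216664436 in GENCODE 44 on GRCh38) checks the labels. In control replicates 1, 2 and 3 the gene stood at 93.5, 87.3 and 136 CPM. In the overexpression replicates it reached 566, 1176 and 498 CPM. All overexpression libraries were above all control libraries. The log2 fold change was 2.73 with a standard error of 0.33 (adjusted p = 0.0148, limma over all genes with Benjamini-Hochberg adjustment).

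Depth was 4579587, 3530444 and 2497353 reads on the measured genes in control replicates 1, 2 and 3. It was 2547997, 3068198 and 3069734 reads in the overexpression replicates. The share of reads on the 13 measured mitochondrial genes, a rough sign of RNA quality, ran from 7.31% to 8.55% in control and from 7.20% to 8.29% in overexpression libraries. The groups overlapped in that share.

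FSCN1 (ENSG00000075618, chr7:5592816-5606655) was the gene among the 10 that differed most. The control replicates 1, 2 and 3 held FSCN1 at 38.4, 59.0 and 34.4 CPM, from 173, 212 and 85 reads. In the overexpression replicates it was 259, 286 and 193 CPM, from 664, 885 and 587 reads. Every overexpression library stood above every control library, and the lowest of them was 3.27-fold the highest control. The mean was 43.9 ± 13.2 CPM in control and 246 ± 47.8 CPM in overexpression cells (SD, n = 3 per group), a ratio of 5.60. The log2 fold change was 2.48 with a standard error of 0.25. The pooled SD among replicates was 0.35 on the same scale, so the difference was several times the replicate spread. In these bulk samples a rise in every cell and a larger share of cells with high FSCN1 cannot be told apart.

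**Figure D1:**
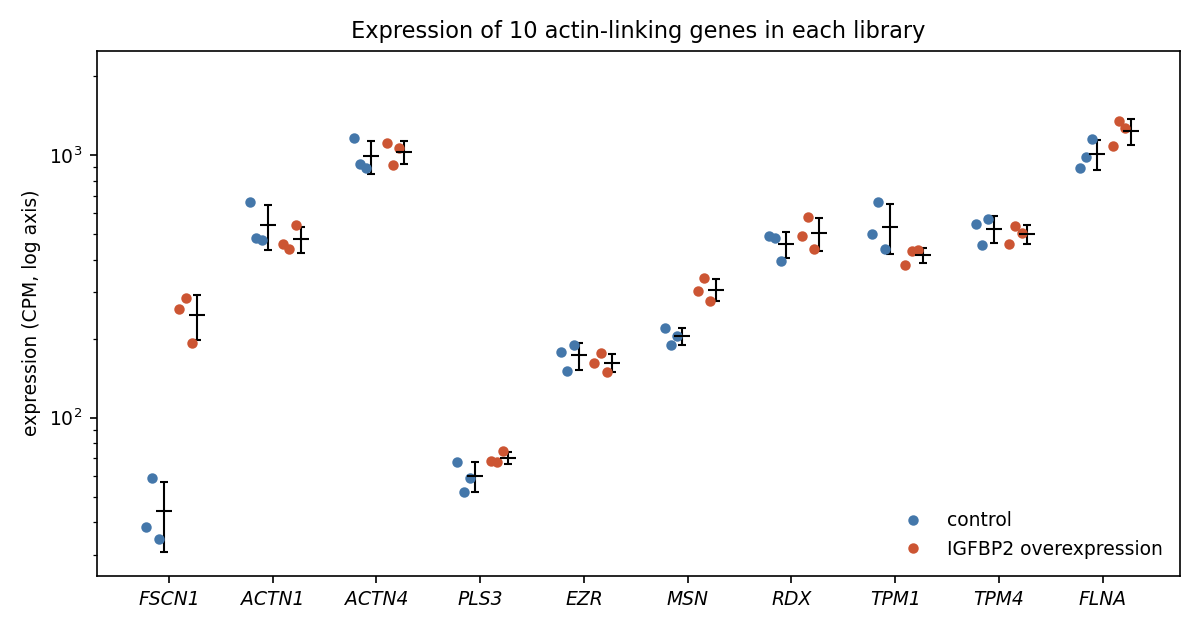
Expression of the 10 genes in each library, in CPM on a log axis, with blue points for the 3 control and orange points for the 3 IGFBP2 overexpression libraries, and black marks for the mean and SD of each group. FSCN1 moves from 43.9 to 246 CPM, while each of the other 9 genes stays within a ratio of 0.777 to 1.50.

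Of the 10 genes, 1 passed the limma threshold of an adjusted p-value under 0.05, and it was FSCN1, which was higher. Over all 10487 genes 0.629% passed, 0.429% higher and 0.2% lower. FSCN1 also passed under each of the 15 alternatives run. In 3 of the 10 genes the groups did not overlap, beside 18.0% of all genes. These were FSCN1 and MSN, higher in all overexpression libraries (9.43% of all genes were), and TPM1, lower in all of them (8.61% of all genes were). Since this comparison chose the genes, nothing is read from these counts.

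The rise changed the place of FSCN1 among the 10. In control cells it had the lowest mean of the 10, and its range overlapped that of PLS3. By library it held rank 10, 9 and 10 of 10 in control replicates 1, 2 and 3. It held rank 8 of 10 in every overexpression library, where its range lay above that of EZR and overlapped that of MSN. Among all measured genes its mean went from rank 4088 to rank 653. FSCN1 made up 0.807%, 1.32% and 0.778% of the summed CPM of the 10 genes in the control replicates, and 5.42%, 5.58% and 3.89% in the overexpression replicates.

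The other 9 genes together moved little. In control replicates 1, 2 and 3 they summed to 4722, 4396 and 4382 CPM, and in the overexpression replicates to 4519, 4837 and 4759.5 CPM, so the groups overlapped. The mean was 4500.3 ± 192 CPM in control and 4705 ± 166 CPM in overexpression cells (SD, n = 3 in each group). Their median log2 fold change was 0.056, beside 9.8e-05 over all genes measured. These 9 genes are also steady between replicates. The median of their within-group SDs was 0.17 on the log2 scale, against 0.27 over all genes. The 9 genes held ranks 113 to 3192 by control mean among all 10487 genes, and abundance was not matched for this comparison.

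**Figure D2:**
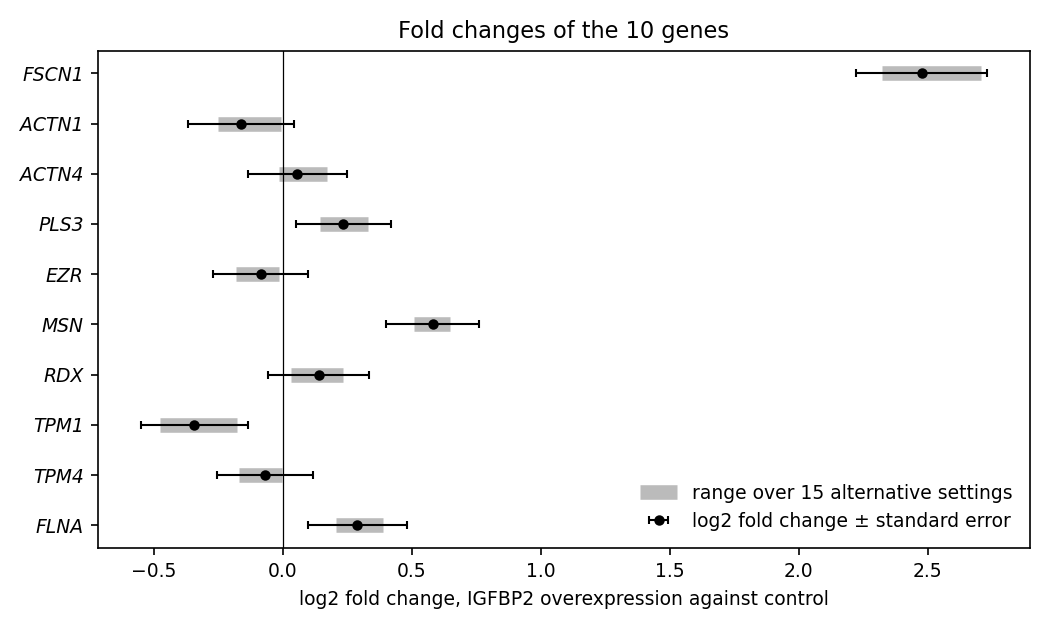
Log2 fold change of each gene between IGFBP2 overexpression and control cells, with points for the value, whiskers for its standard error and grey bars for the lowest to highest value over 15 alternative settings. FSCN1 lies at 2.48 with a grey bar from 2.32 to 2.71, and MSN is the next at 0.58.

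Among the bundling and cross-linking genes of the 10, the filamin and the alpha-actinins had the highest CPM levels. FLNA (ENSG00000196924, chrX:154348524-154374634) encodes the filamin that most cell types use. It measured 895, 987 and 1152 CPM in control and 1083, 1348 and 1273 CPM in overexpression replicates 1, 2 and 3. The groups overlapped through control replicate 3, and the log2 fold change was 0.29 (standard error 0.19).

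ACTN4 (ENSG00000130402, chr19:38647649-38731589) and ACTN1 (ENSG00000072110, chr14:68874128-68979440) encode the alpha-actinins of non-muscle cells. ACTN4 measured 1158, 929 and 896 CPM in control and 1111, 916 and 1065 CPM in overexpression replicates. ACTN1 measured 662, 486 and 474 CPM in control and 458, 439 and 541 CPM in overexpression replicates. The groups overlapped for both, with log2 fold changes of 0.06 (standard error 0.19) for ACTN4 and -0.16 (standard error 0.21) for ACTN1. Omitting single libraries moved the value of ACTN4 between -0.014 (without control replicate 3) and 0.17 (without control replicate 1). It moved the value of ACTN1 between -0.25 (without overexpression replicate 3) and -0.0078 (without control replicate 1). ACTN1 held 36.4%, 34.3% and 34.6% of their joint reads in control replicates and 29.2%, 32.4% and 33.7% in overexpression replicates, so each overexpression library was below each control library. The mean share was 35.1% ± 1.10 in control and 31.8% ± 2.32 in overexpression cells (SD, n = 3 in each group). Overexpression replicate 1 was the farthest, and the gap between control replicate 2 and overexpression replicate 3 was under 1 percentage point. The muscle genes ACTN2 and ACTN3 were not among the measured genes.

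PLS3 (ENSG00000102024, chrX:115561174-115650861) encodes the plastin found in most solid tissues. The gene gave 67.9, 52.3 and 59.0 CPM in control and 68.2, 67.8 and 74.6 CPM in overexpression replicates. Overexpression replicate 2 fell just under control replicate 1, so the groups overlapped, and the log2 fold change was 0.24 (standard error 0.18), or 0.14 without control replicate 2. PLS3 held 72.7% ± 3.82 of the reads of the 3 plastin genes in control and 73.9% ± 3.14 in overexpression cells (SD, n = 3 in each group). The remainder came from PLS1, the plastin of microvilli, and LCP1, the plastin of white blood cells.

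In the ERM family, MSN alone had groups that did not overlap. MSN (ENSG00000147065, chrX:65588377-65741931) encodes moesin. It measured 220.4, 189 and 205 CPM in control and 304, 339.6 and 279 CPM in overexpression replicates, so the lowest overexpression library was 1.27-fold the highest control. The mean was 205 ± 15.5 CPM in control and 308 ± 30.5 CPM in overexpression cells (SD, n = 3 per group). The log2 fold change was 0.58 (standard error 0.18). MSN did not pass the limma threshold over all genes under any of the settings run.

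RDX (ENSG00000137710, chr11:109864295-110296712) encodes radixin and gave the most reads of the family. It measured 490.2, 485 and 397 CPM in control and 493, 583 and 439 CPM in overexpression replicates. EZR (ENSG00000092820, chr6:158765741-158819368) encodes ezrin, the ERM protein of epithelial microvilli. It measured 178, 149.9 and 189.6 CPM in control and 161, 176 and 149.5 CPM in overexpression replicates. For both genes the groups overlapped, with log2 fold changes of 0.14 (standard error 0.20) for RDX and -0.09 (standard error 0.19) for EZR. Omitting single libraries moved the value of RDX between 0.031 (without overexpression replicate 2) and 0.24 (without overexpression replicate 3). It moved the value of EZR between -0.18 (without control replicate 2) and -0.014 (without control replicate 3).

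Shares within a family do not depend on how libraries are scaled. MSN held 24.8%, 23.0% and 25.9% of ERM reads in control replicates and 31.7%, 30.9% and 32.2% in overexpression replicates. The groups were apart, by 7.05 percentage points in the mean. EZR held 20.0%, 18.2% and 24.0% in control and 16.8%, 16.0% and 17.2% in overexpression replicates, each overexpression library below each control library. Shares of a family sum to the whole, so a higher MSN share lowers the others, and the CPM levels of EZR overlapped between groups. RDX held 54.7% ± 4.38 in control and 51.7% ± 1.27 in overexpression cells (SD, n = 3 in each group), and its groups overlapped.

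**Figure D3:**
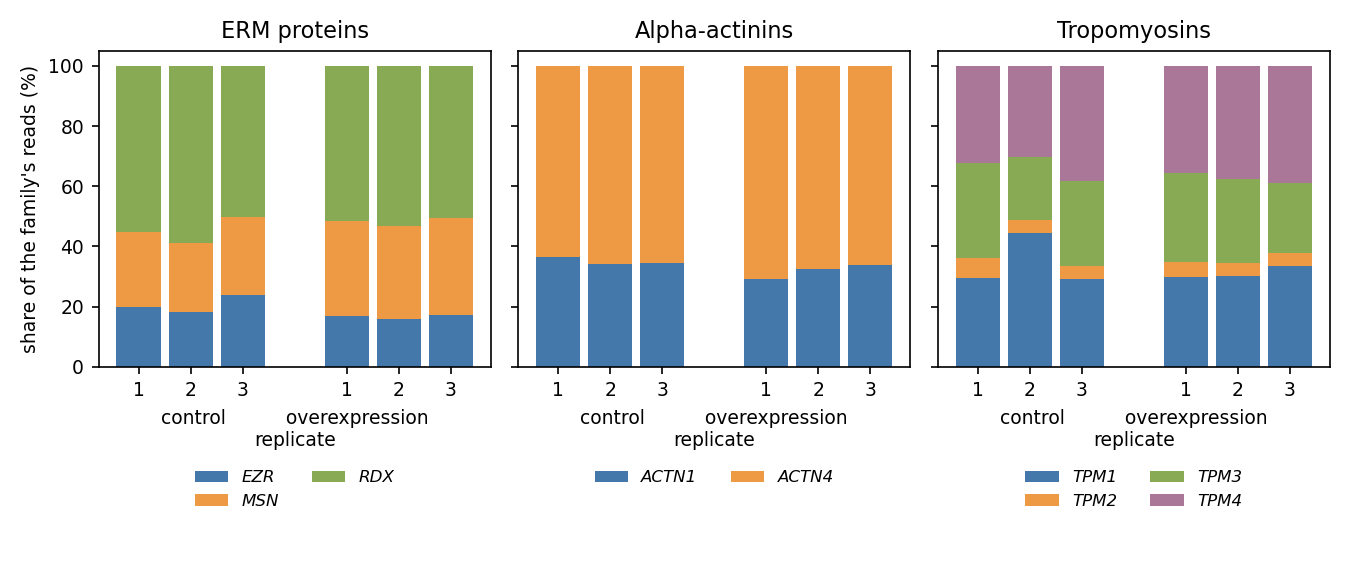
Share of each gene in the reads of its family in every library, in percent, for the ERM genes, the alpha-actinins and the tropomyosins, with control replicates 1 to 3 on the left and IGFBP2 overexpression replicates 1 to 3 on the right of each panel. The MSN share runs from 23.0% to 25.9% in control and from 30.9% to 32.2% in overexpression libraries, while TPM1 reaches 44.4% in control replicate 2.

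Among the tropomyosins, TPM1 had the widest spread on the log2 scale among control libraries of the 10 genes after FSCN1. TPM1 (ENSG00000140416, chr15:63042620-63071915) measured 503, 663 and 438 CPM in control and 382, 430.3 and 434 CPM in overexpression replicates. All overexpression libraries were lower, though control replicate 3 and overexpression replicate 3 nearly met, and the log2 fold change was -0.34 (standard error 0.21). Control replicate 2 decided much of that value: without it the log2 fold change was -0.18. TPM4 (ENSG00000167460, chr19:16067021-16103002) measured 549, 454 and 573 CPM in control and 457, 537 and 506 CPM in overexpression replicates. Its groups overlapped, and the log2 fold change was -0.07 (standard error 0.19), with -0.17 without control replicate 2 and -0.00081 without control replicate 3. TPM1 held 29.6%, 44.4% and 29.1% of the reads of TPM1 to TPM4 in control replicates and 29.8%, 30.1% and 33.4% in overexpression replicates, so control replicate 2 stood apart from the other 5 libraries. TPM2 and TPM3, the remaining members of the family, had log2 fold changes of -0.37 and -0.21 and did not pass the threshold.

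Reads shared with near-identical genes were looked for in the annotation. Of the 100-base words in the last 500 bases of annotated coding transcripts, 0% occurred in a transcript of another gene for FSCN1, ACTN1, PLS3, EZR, MSN, TPM1, TPM4 and FLNA. The share was 1.06% for ACTN4, through the pseudogene ACTN4P1, and 0.631% for RDX, through the pseudogene RDXP1. ACTN1 shares 300 exon bases with the processed pseudogene HMGN1P3 on the same strand, which was not among the measured genes. TPM1, ACTN4, TPM4, EZR and FLNA share exon bases with annotated genes on the opposite strand, none of them among the measured genes, and the strand setting of the authors' counting is not stated.

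The genes whose pattern over the 6 libraries was most like that of FSCN1 were C1QTNF1, BCAN-AS1, EGFLAM, CSF1R and RDH10. Likeness was the mean absolute difference between log2 values centred on each gene's own mean, and it was 0.115 for C1QTNF1, 0.127 for BCAN-AS1, 0.200 for EGFLAM, 0.284 for CSF1R and 0.291 for RDH10. All were far less abundant than FSCN1. The authors kept genes averaging more than 5 CPM in either condition. Control means were 4.01 CPM for C1QTNF1, 2.15 for BCAN-AS1, 1.15 for EGFLAM and 0.97 for CSF1R. These genes were thus measured only through their overexpression level, which fixed their direction, and nothing is read from the likeness. C1QTNF1, which encodes a secreted protein with a complement C1q domain, measured 3.77, 5.84 and 2.43 CPM in control and 26.9, 32.6 and 17.7 CPM in overexpression replicates. CSF1R, a receptor of the macrophage growth factor CSF1, rested on 2 to 6 reads per control library. EGFLAM rested on 1 to 7 such reads and BCAN-AS1 on 4 to 11. None of these 5 genes is an actin-linking gene in the lists used here.

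The rest of the actin cytoskeleton was examined with 8 lists of genes other than the 10, 247 in all, of which 190 were measured. With limma, 1 of the 190 genes passed the threshold (0.629% of all genes did) and 23 had an unadjusted p-value under 0.05, as did 13.0% of all genes. The gene that passed was MYH14, which was lower. limma voom on the recovered reads called 4 of the 190, beside 1.34% of all genes, and MYH14 was not among them. These shares of all genes are the background for the counts in each list. Groups did not overlap for 36 of the 190 genes, 17 higher and 19 lower, a share of 18.9% beside 18.0% of all genes. The median log2 fold change of the 190 genes was -0.01.

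**Figure D4:**
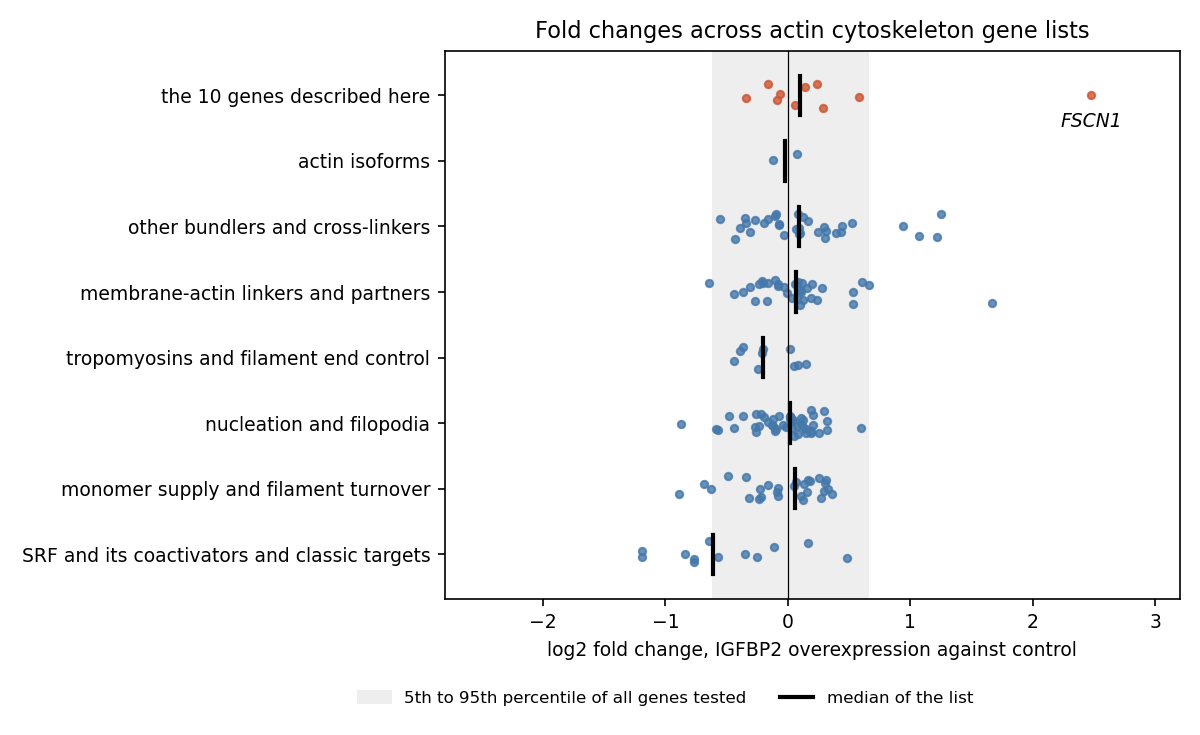
Log2 fold change of every measured gene in 7 of the 8 actin cytoskeleton lists (blue) and of the 10 genes described here (orange), with a black line for each list's median and a grey band for the 5th to 95th percentile of all genes tested. FSCN1 at 2.48 lies to the right of all list genes drawn, the highest of which is ICAM1 at 1.67.

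The actin genes themselves did not pass the threshold. ACTG1, the most abundant gene of these lists, measured 4305, 2852 and 3320.1 CPM in control and 3333, 2982 and 3185 CPM in overexpression replicates. Its log2 fold change was -0.12 (standard error 0.21). ACTB had a log2 fold change of 0.07 (standard error 0.24). Both signs depended on a single library: ACTB was at -0.15 without control replicate 2 and ACTG1 at 0.040 without control replicate 1. The 4 muscle actins were not among the measured genes.

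Of 33 measured bundlers and cross-linkers other than the 10, 0 passed the threshold with limma, 5 had an unadjusted p-value under 0.05 (13.0% of all genes did) and 1 was called by limma voom (1.34% of all genes were). Their median log2 fold change was 0.09. The smallest p-values belonged to SYNPO, EPS8 and AFAP1L2. SYNPO (synaptopodin, a partner of alpha-actinin) measured 6.22, 7.23 and 10.1 CPM in control and 24.6, 19.4 and 16.1 CPM in overexpression replicates. On the log2 scale it differed by 1.25 (standard error 0.24, adjusted p = 0.0638 from limma). EPS8, which caps and bundles filaments, had a log2 fold change of 1.07 and an adjusted p of 0.0871 (limma). AFAP1L2 had one of 1.22 and an adjusted p of 0.0902 (limma), from 24 reads over the control libraries and 60 over the overexpression libraries. Its means were 2.37 CPM in control and 6.97 CPM in overexpression cells. The authors' minimum of 5 CPM thus kept AFAP1L2 only through its overexpression level, which fixed its direction. In all 3 genes the groups did not overlap, as in 9 of the 33 genes of the list and 18.0% of all genes. The 3 were picked by their p-values, so the lack of overlap adds nothing to them. SYNPO was called under 4 of the 15 alternatives, EPS8 under 1 of 15, and AFAP1L2 under 0 of the 14 run for it. TAGLN2, the most abundant gene of the list, was higher in all overexpression libraries, with a log2 fold change of 0.45 and an adjusted p of 0.437 (limma).

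Of 34 measured membrane linkers and partners, 0 passed with limma, 3 had an unadjusted p-value under 0.05 (13.0% of all genes did) and 1 was called by limma voom (1.34% of all genes were). The median log2 fold change was 0.07. ICAM1, an adhesion molecule that binds ERM proteins, measured 5.99, 33.9 and 12.5 CPM in control and 45.2, 46.5 and 47.6 CPM in overexpression replicates. The overexpression libraries lay close together while the control libraries were spread widely, and the log2 fold change of 1.67 had a standard error of 0.48 (adjusted p = 0.2, limma). Without control replicate 2 the change was 2.29 and passed (adjusted p = 0.0231, limma), and without control replicate 1 it was 1.13 and did not (adjusted p = 0.25, limma). EPB41L1 had a log2 fold change of 0.67 and ZYX, the focal adhesion protein zyxin, of 0.53, with groups that did not overlap. Groups did not overlap for 5 of the 34 genes of the list, beside 18.0% of all genes. ANXA2, the most abundant gene of the list, stood at 0.28 (adjusted p = 0.598, limma).

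Filament nucleation and filopodia genes, 47 of them measured, are the machinery that builds the filaments fascin bundles. None passed with limma (0 of 47, with 4 at an unadjusted p-value under 0.05, beside 13.0% of all genes, and 0 by limma voom), and their median log2 fold change was 0.02. The smallest p-values belonged to DIAPH3, MTSS1 and CDC42EP1. DIAPH3, a formin, had a log2 fold change of -0.57, MTSS1, a membrane-bending protein, of -0.87, and CDC42EP1, an effector of CDC42, of -0.44. Their adjusted p-values were 0.267, 0.291 and 0.328 (limma). RAC1, the most abundant gene of this list, had one of -0.10.

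Among 28 measured genes of monomer supply and filament turnover, 0 passed with limma, 2 had an unadjusted p-value under 0.05 (13.0% of all genes did) and 1 was called by limma voom (1.34% of all genes were). LIMK2, the kinase that inactivates cofilin, measured 58.4, 74.8 and 84.1 CPM in control and 39.4, 37.8 and 37.4 CPM in overexpression replicates. The groups were well apart, and the log2 fold change was -0.89 (standard error 0.20, adjusted p = 0.106 from limma). LIMK2 was called under 3 of the 15 alternatives. Groups did not overlap for 4 of the 28 genes of the list, beside 18.0% of all genes. MICALL1 had a log2 fold change of -0.68 (adjusted p = 0.144, limma). TMSB4X, which stores actin monomers, had one of -0.63 (adjusted p = 0.413, limma), and of -0.36 without control replicate 1. TMSB10, another monomer-binding thymosin and the most abundant gene of the list, had one of -0.08.

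The 10 measured genes of tropomyosin and filament end control had 0 calls with limma, 0 at an unadjusted p-value under 0.05 and 0 by limma voom. Their median log2 fold change was -0.21. CALD1 (caldesmon, the most abundant gene of the list), CARMIL1 and TPM2 had the smallest p-values, with log2 fold changes of -0.39, -0.44 and -0.37 and adjusted p-values of 0.497, 0.5 and 0.579 (limma). Single libraries weighed on the last 2: TPM2 was at -0.10 without control replicate 1, and CARMIL1 at -0.25 without control replicate 1 and at -0.24 without overexpression replicate 3.

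The gene of the 190 that passed the threshold was MYH14, a non-muscle myosin II heavy chain. It measured 5.99, 9.74 and 16.6 CPM in control and 1.95, 0.646 and 1.64 CPM in overexpression replicates. All overexpression values lay under 5 CPM, the authors' minimum for the average in either condition. The gene was thus measured only through its control level, which fixed the direction of its difference. The log2 fold change was -2.23 (standard error 0.35, adjusted p = 0.0416 from limma). The value rests on 103 reads over the control libraries and 12 over the overexpression libraries, and the call was lost under 7 of the 15 alternatives, over all of which the adjusted p (limma) ran from 0.0184 to 0.15. Leaving out any library but control replicate 1 lost it, with log2 fold changes from -2.40 to -1.89. At a pseudocount of 5 the log2 fold change was -1.25, and at 0.1 it was -2.85.

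SRF, a transcription factor that many actin genes respond to, was taken with its coactivators and classic targets. Of 12 measured genes 0 passed with limma, 5 had an unadjusted p-value under 0.05 (1 higher and 4 lower, beside 13.0% of all genes in either direction) and 0 were called by limma voom. Groups did not overlap for 4 of the 12, beside 18.0% of all genes. Their median log2 fold change was -0.61, within a range of -1.19 to 0.48. Of the 12, 2 differed by over 2-fold, as did 347 of all 10487 genes. ANKRD1 had a log2 fold change of -0.84, MRTFA, an SRF coactivator that senses free actin, of -0.77, and PDLIM7 of 0.48, each with groups that did not overlap and adjusted p-values of 0.195, 0.286 and 0.289 (limma). Without overexpression replicate 1 the value of MRTFA was -0.46. SRF itself was the most abundant of them and had a log2 fold change of -0.35 (adjusted p = 0.553, limma).

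Windows of 250 bases before to 50 bases after RefSeq transcription starts (GRCh38.p14) were searched for the CArG box, the element that SRF binds, since actin-linking genes are known for it. The table of windows used here covered 9 of the 10 genes with 17 windows, and that of FSCN1 was not analysed here. A CArG box occurred in 1.29% of all 35116 windows and in 3 of the 17, in ACTN1, TPM4 and FLNA. The stretches are printed 5′ to 3′ on the gene's strand with the CArG box in capitals, at chr14:68977718-68977747 (minus strand, from 1 of several ACTN1 starts), chr19:16067355-16067384 (plus strand) and chrX:154374709-154374738 (minus strand).
ACTN1: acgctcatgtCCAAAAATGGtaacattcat
TPM4: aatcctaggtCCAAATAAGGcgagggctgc
FLNA: ggcaattttaCCAATTAAGGctttctcgcc
These 3 genes had log2 fold changes of -0.16, -0.07 and 0.29, with groups that overlapped. The pattern TGANTCA, the same on both strands, takes in the AP-1 site TGACTCA and looser forms. It occurred in 7.71% of all windows and in 2 of the 17, as TGACTCA in EZR and as TGAATCA in ACTN4. A match describes letters in the window and not a bound site.

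The libraries were checked against markers of the labelled cell type and of others. Of 15 epithelial and basal-like markers, 14 were measured, with summed expression of 6744, 5189 and 6183 CPM in control and 7007, 7102 and 5845 CPM in overexpression replicates, and KRT19 the most abundant. The groups overlapped. EGFR measured 869, 1137 and 805 CPM in control and 1358, 1319 and 1109.6 CPM in overexpression replicates, and its groups overlapped. Of the receptor genes whose absence defines triple negative tumours, ESR1 and PGR were not among the measured genes and ERBB2 lay between 15.8 and 37.0 CPM. None of 8 leukocyte and endothelial markers was measured.

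Of 13 mesenchymal and fibroblast markers, 2 were measured, VIM and COL1A1. The defining fibroblast genes COL1A2, COL3A1, DCN, LUM, PDGFRA and PDGFRB were not among the measured genes. The summed expression of the pair was 449, 286 and 120 CPM in control and 726, 656 and 387 CPM in overexpression replicates. VIM, the most abundant, encodes vimentin, an intermediate filament protein. It measured 435, 274 and 92.6 CPM in control and 712, 646 and 371 CPM in overexpression replicates. On the log2 scale it differed by 1.31 (standard error 0.51, adjusted p = 0.32 from limma). Its groups overlapped, since overexpression replicate 3 lay under control replicate 1. COL1A1, a fibrillar collagen, had a log2 fold change of -0.36 (adjusted p = 0.691, limma), with groups that overlapped, so the sum follows VIM. Among epithelial markers KRT6B had the largest change, 1.65 on the log2 scale, with groups that did not overlap (adjusted p = 0.0638, limma), and it was called by limma voom and with a mean-variance trend. KRT6B was the 1 of the 14 measured epithelial markers without overlap, beside 18.0% of all genes. The part of these markers in the rise of FSCN1 was not tested.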

How the data were processed

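Total RNA from 3 biological replicates of control and of IGFBP2 overexpression MDAMB468 cells was sequenced with a 3′ mRNA kit. Reads were trimmed with bbduk, mapped with STAR (hg38) and counted with HTSeq (version 0.9.1) by the authors. The authors normalized with edgeR, required genes to average more than 5 CPM in either condition and deposited log2(CPM + 1). The deposited values are whole multiples of a read in each library (100% within 0.1 read), and limma voom and the other scalings were run on these recovered reads.

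limma (version 3.58.1, R 4.3.3) without a trend was fitted to all 10487 genes on the deposited log2 scale, with condition alone in the model, Benjamini-Hochberg adjustment and a threshold of 0.05. Fold changes on this scale understate those of low genes. GENCODE 44 gave symbols for 10462 of 10487 identifiers. On simulated reads of the 10487 genes with 200 changed, 67% of changed genes were recovered (99.0% of those changed 4-fold and 35.6% of those changed 2-fold), with 4 false calls. Every simulated gene had the same setting for variation between replicates, and no library was made an outlier. These shares thus describe the simulated reads and not the accuracy of the fit on these libraries.

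The 10 genes and all lists were chosen with earlier results of these data known. Named genes were the 10, IGFBP2, cell markers, the 5 genes most like FSCN1 and, in each list, genes past the threshold, the 3 smallest p-values and the most abundant gene. EGR1 was named for its call without overexpression replicate 3. Alternatives were a mean-variance trend, limma voom, 3 scalings, 2 pseudocounts, a CPM minimum of 10, a replicate block and the omission of each of the 6 libraries. Counts over the 190 genes cover all 8 lists, of which 1 is not reported here on its own.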

Additional observations from a re-analysis of the deposited data

How the results depend on the processing

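The log2 fold change of FSCN1, 2.48, ran from 2.32 to 2.71 over 15 alternatives. It was the 1 gene of the 10 past the threshold under each, which is a description only, since this comparison chose the genes. The number of differing genes, 66, was 160 with a mean-variance trend, 141 with limma voom, 37 at a pseudocount of 0.1 and 129 at 5. It ranged from 12 to 79 when single libraries were omitted, and was 12 without overexpression replicate 1, 13 without overexpression replicate 2 and 17 without control replicate 3. The count of other actin cytoskeleton genes past the threshold, 1 of 190, was 4 with the trend, 4 with limma voom, 0 at a pseudocount of 0.1, 4 at 5, 2 at a CPM minimum of 10, and 0 to 1 when single libraries were omitted (0 without the same 3 libraries). Without control replicate 2 the 1 call was ICAM1, higher, and without overexpression replicate 3 it was EGR1, lower, both in place of MYH14. The cause was not tested. With single libraries omitted, ACTB ran from -0.15 (without control replicate 2) to 0.27 and ACTG1 from -0.26 to 0.040 (without control replicate 1). Of the 10 genes, ACTN4 changed sign (-0.014 to 0.17), and none of the 10 moved by more than its SD between replicates.

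With the replicate block the differing genes were 55, the other actin genes 1, the 10 genes 1 and FSCN1 2.48. Library deviations with the same number had correlations of 0.17, -0.064 and 0.084. Those with different numbers ran from -0.17 to 0.085. Whether libraries of the same number share a batch cannot be told from so few values. The edgeR quasi-likelihood test was planned but not run, and limma voom was the test on recovered reads. Depth limits the lowest genes, such as MYH14 with 2 to 5 reads per overexpression library.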
